A study of Lithobates clamitans with 20 samples.

Results

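Gut tissue of 20 green frog (Lithobates clamitans) tadpoles was sequenced. Of the 8477 genes in the deposited table, 63 passed limits on size, zero counts and abundance, given below, for opposite differences between the 32°C and 22°C codes in the depleted and the colonized animals. The tadpoles came from a single breeding pair, were reared individually, and were colonized (raised with untreated pond water) or depleted (raised with the same pond water after autoclaving, which leaves a microbiome of lower diversity and not a germ-free gut). Some of each kind stayed at 22°C (cool) and the others were held at 32°C (warm) for 24 h before dissection. The 4 groups of 5 tadpoles are called here by the start of the animal code: D32, D22, C32 and C22, where D or C reads as depleted or colonized and 32 or 22 as the temperature. For 10 tadpoles the treatment fields of the sample record give another reading of these codes. D32 is warm depleted and C22 is cool colonized in both records, but D22 is recorded as warm and colonized and C32 as cool and depleted. The labels do not settle which record is right, and every group below is named by its code.

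The members were chosen by their measured values. L is log2 CPM after TMM scaling with a prior count of 2. A gene was selected on having no zero count, a mean of under 1000 normalized CPM, and differences of mean L between D32 and D22 and between C32 and C22 that had opposite signs and were each at least 0.7. Of the 6364 genes that met the first 2 conditions, 33 (0.519%) were lower in D32 than in D22 and higher in C32 than in C22. They are called the D22/C32-high set. Another 30 (0.471%) were higher in D32 than in D22 and lower in C32 than in C22, and are called the D32/C22-high set. Because these differences chose the genes, they are given as values with no test. By the treatment fields the same 2 differences would be depleted minus colonized at each temperature, so the label of opposite heat responses holds only for the reading by code.

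The response of a gene to temperature can be drawn as a reaction norm, and norms that cross between 2 rearing conditions are the usual picture of an interaction between rearing condition and temperature. In ectotherms such as tadpoles, body temperature follows the water, and transcripts of the gut adjust to warming within hours. The gut also holds the densest microbial community of the animal, which ferments plant material in herbivorous tadpoles. The gene identifiers are those of the American bullfrog genome and the files do not pair them with names, so no role is given for any gene, and neither the gut label nor cell types could be checked against markers.

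Opposite differences of this size were uncommon among the genes that could have met the rule. Of the 6364 genes, 1969 (30.9%) had opposite signs of any size, 958 on the side of the D22/C32-high set and 1011 on the side of the D32/C22-high set. Differences of at least 0.7 in the same direction in both codes were found for 678 genes, 305 higher and 373 lower at the 32°C code. The plot of both differences for each gene shows the cloud running along the diagonal of equal sign, with the members at the corners away from it. Another 164 genes on the D22/C32-high side and 152 on the D32/C22-high side met the rule except for a zero count in at least 1 library, and 3 and 0 met it except for the limit on abundance. Those genes are not members.

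**Figure D1:**
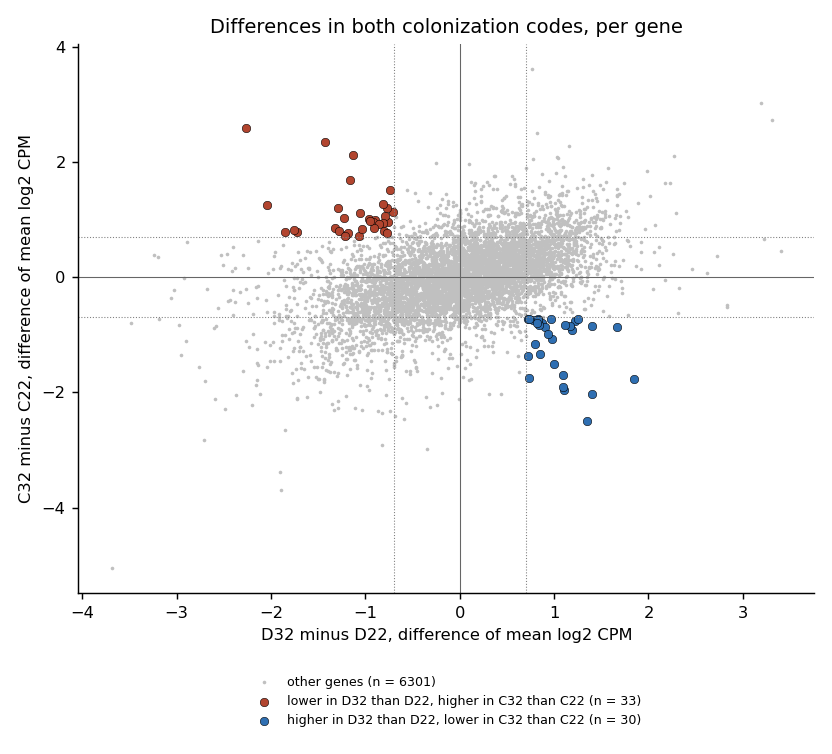
Difference of mean log2 CPM between D32 and D22 (x axis) and between C32 and C22 (y axis) for each of the 6364 genes that could have been members. Dotted lines mark differences of 0.7 in size. The 33 genes of the D22/C32-high set lie at the upper left and the 30 of the D32/C22-high set at the lower right.

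The genes next to the threshold on both sides had similar values. Just inside it in the D22/C32-high set were AB205_0146580, with D32 minus D22 of -0.71 and C32 minus C22 of 1.12, and AB205_0080470, with -1.07 and 0.71. Just outside were AB205_0114970, with -0.70 and 0.87, and AB205_0214610, with -0.77 and 0.70. In the D32/C22-high set AB205_0198590, with 0.72 and -0.72, and AB205_0006250, with 0.83 and -0.72, were just inside, while AB205_0082640, with 0.70 and -1.02, and AB205_0070380, with 0.70 and -1.41, were just outside. The values of 0.70 outside the threshold are 0.698, 0.696, 0.698 and 0.697 before rounding, in the order named. Both differences were at least 1 in size for 8 genes of the D22/C32-high set and 6 of the D32/C22-high set.

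In the D22/C32-high set, the median of D32 minus D22 was -1.05 (range -2.27 to -0.71) and the median of C32 minus C22 was 0.96 (range 0.71 to 2.58), both in log2 units. In the D32/C22-high set these medians were 0.98 (range 0.72 to 1.85) and -0.87 (range -2.49 to -0.72). The difference was larger in depleted codes for 15 and larger in colonized codes for 18 of the D22/C32-high set, and for 18 and 12 of the D32/C22-high set. Members of the D22/C32-high set were the more abundant, with a median of 30.8 normalized CPM against 6.65 in the D32/C22-high set and 13.9 over the 6364 genes. Levels per gene are not scaled by length and are compared here only between sets.

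Members were ranked by the smaller of their 2 differences in size, and the first of the D22/C32-high genes was AB205_0054730. Its normalized CPM were 1498, 3.70, 687.2, 445.6 and 167.9 in the D32 tadpoles D3202, D3203, D3205, D3206 and D3207, against 704.7, 1063, 1802, 369.7 and 1525 in the D22 tadpoles D2201, D2202, D2203, D2206 and D2209. In the C32 tadpoles C3204, C3205, C3207, C3208 and C3210 they were 208.6, 8.17, 906.8, 1123 and 1154, against 606.6, 5.35, 298.4, 3.13 and 83.1 in the C22 tadpoles C2201, C2204, C2206, C2207 and C2208. The groups overlapped in both comparisons. In all, 4 tadpoles (1 of D32, 1 of C32 and 2 of C22) had under 10 normalized CPM, and the other 16 had at least 83.1. D32 minus D22 was -2.27 (standard error 1.57, n = 5 each) and C32 minus C22 was 2.58 (standard error 2.04), where each standard error combines the spread of the 5 tadpoles in both groups. Without D3203 the first difference was -0.85, between group medians it was -1.25, and without C2207 the second was 1.63.

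AB205_0209510 came next and was nearly absent from some tadpoles. In D32 it had 19.8, 16.6, 26.4, 0.112 and 19.5 normalized CPM in the same order of tadpoles, against 55.0, 0.566, 64.8, 48.1 and 44.2 in D22. In C32 it had 30.03, 19.2, 31.2, 24.6 and 20.96, against 37.0, 0.288, 0.335, 21.4 and 21.0 in C22. The 4 low tadpoles, D3206, D2202, C2204 and C2206, had between 3 and 9 counts, and no other tadpole had fewer than 244. Without them every tadpole was at 16.6 or more. The difference was -1.42 (standard error 1.83) for D32 minus D22 and 2.34 (standard error 1.47) for C32 minus C22, and the groups overlapped in both. Without D3206 the first difference was -0.11, and without D2202 it was -2.69. The second was 1.43 without C2204, 1.47 without C2206 and 0.23 between group medians.

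Among the D32/C22-high genes AB205_0109530 ranked first. Its normalized CPM were 51.7, 38.2, 0.959, 59.9 and 108.9 in D32, against 26.9, 2.77, 2.38, 65.4 and 1.69 in D22. In C32 they were 34.9, 27.1, 4.88, 1.88 and 6.48, against 16.7, 88.4, 4.70, 85.4 and 46.2 in C22. D3205 was the lowest of all 20 tadpoles although it belongs to a group in which the other 4 had at least 38.2. The differences were 1.85 (standard error 1.59) for D32 minus D22 and -1.77 (standard error 1.12) for C32 minus C22. Without D3205 the first was 3.08, and between group medians they were 4.18 and -2.82.

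AB205_0098760, the next of the D32/C22-high set, was a low-abundance gene. In D32 it had 5.32, 1.70, 0.844, 0.936 and 2.17 normalized CPM, against 0.542, 0.880, 0.681, 0.694 and 0.328 in D22. Only D3205 of the D32 tadpoles lay within the D22 range. In C32 it had 1.02, 1.43, 0.232, 0.598 and 0.864, against 1.73, 9.61, 1.01, 1.06 and 18.9 in C22, where C2204 and C2208 stood well above the others. The differences were 1.40 (standard error 0.50) and -2.03 (standard error 0.92), and the second was -0.92 between group medians. The counts behind the lowest values, 5 in C3207 and 6 in D2209, leave a wide counting error.

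**Figure D2:**
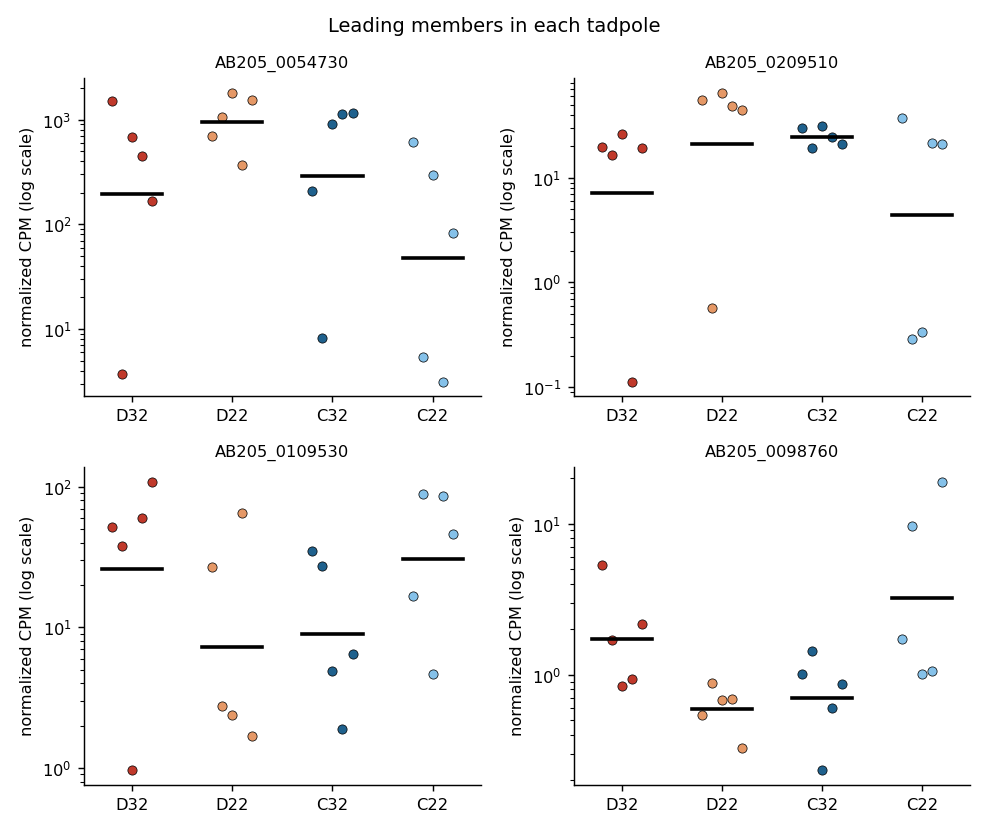
Normalized CPM (log scale) of the first 2 genes of the D22/C32-high set (top) and of the D32/C22-high set (bottom) in each of the 5 tadpoles of D32, D22, C32 and C22, with 1 point per tadpole and a line at the geometric mean of the group. Single D32 tadpoles lie far below the rest of their group in AB205_0054730 (D3203 at 3.70), AB205_0209510 (D3206 at 0.112) and AB205_0109530 (D3205 at 0.959).

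Such a spread between like-coded tadpoles was common among the members. The SD of L within groups, pooled over the 4 groups, had a median of 1.16 in the D22/C32-high set and 0.928 in the D32/C22-high set, against 0.472 over the 6364 genes. All 33 and all 30 members lay above that last value. In at least 1 group, the highest tadpole had 10 or more times the normalized CPM of the lowest for 24 of 33 genes of the D22/C32-high set (72.7%) and 15 of 30 of the D32/C22-high set (50.0%), against 8.19% of the 6364 genes. A ratio of at least 100 was found for 2 (6.06%) and 1 (3.33%) members, against 25 of the 6364 genes (0.393%). The rule itself favors genes with a wide spread, and the 6364 genes were not matched to the members by abundance. Nothing is therefore read from these gaps in spread. Groups without overlap were counted beside their share over the 6364 genes. Values in D32 were all below those in D22 for 4 of the 33 D22/C32-high genes, beside 6.74% of the 6364 genes, and values in C32 were all above those in C22 for 2, beside 3.91%. Of the 30 D32/C22-high genes, 1 was without overlap between D32 and D22, beside 7.72% of genes with D32 above D22, and 1 between C32 and C22, beside 3.9% with C32 below C22. The rule used these contrasts, so nothing is read from the counts. No member was without overlap in both. In the direction of the D22/C32-high set 1 of the 6364 genes was (0.0157%), and in the other direction 0 were (0%).

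**Figure D3:**
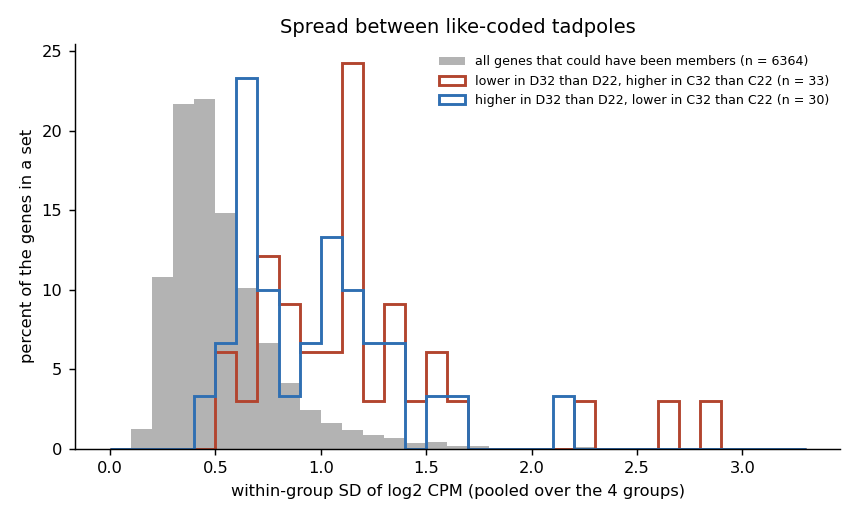
Percent of genes (y axis) by the SD of log2 CPM between tadpoles of the same code, pooled over the 4 groups (x axis), for the 6364 genes that could have been members (grey), the D22/C32-high set (red) and the D32/C22-high set (blue). The medians are 0.472, 1.16 and 0.928. The rule itself favors genes with a wide spread.

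The 8 members with a gap between the groups in one contrast are named here because they are few, and they were singled out after their values had been seen. AB205_0093640 averaged 12.6 ± 7.84 normalized CPM (SD, n = 5) in D32 and 39.2 ± 17.3 in D22, AB205_0072910 20.2 ± 10.6 and 58.1 ± 17.2, AB205_0027790 319.5 ± 172.9 and 878.8 ± 137.5, and AB205_0207080 32.2 ± 9.21 and 73.1 ± 13.9. In each of these 4 the C32 and C22 values overlapped. AB205_0078060 had between 18.0 and 24.7 in C32 and between 6.70 and 13.1 in C22, while its D32 values ran from 0.565 to 22.8. AB205_0206860 likewise had 53.2 ± 9.42 in C32 and 31.6 ± 7.58 in C22. In the D32/C22-high set, AB205_0020540 had between 5.03 and 9.59 in D32 and between 2.57 and 4.34 in D22. AB205_0082580 had 2.01 ± 0.750 in C32 and 3.49 ± 0.453 in C22. For this pair of genes the other contrast overlapped too.

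Which group departed most was measured as the group whose mean L lay farthest from the mean of the 4 groups. In the D22/C32-high set this was C22, on the low side, for 11 genes, D22 on the high side for 10, C32 on the high side for 7 and D32 on the low side for 5. In the D32/C22-high set it was D22 on the low side for 13 genes, C22 on the high side for 11, D32 on the high side for 5 and C32 on the low side for 1. D22 or C22 thus departed most for 21 of 33 and 24 of 30 members. Over the 6364 genes D22 was also the most frequent farthest group, for 2127, with D32 for 1746, C22 for 1271 and C32 for 1220. The rule used these group means, so nothing is read from the member counts. The median deviation of the D22/C32-high genes was -0.35 in D32, 0.85 in D22, 0.39 in C32 and -0.69 in C22, and that of the D32/C22-high genes 0.41, -0.70, -0.40 and 0.59 in the same order.

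Among the members, the codes at 22°C were the farther apart by median, and the same gaps over all genes are not given here. D22 exceeded C22 for 32 of the 33 D22/C32-high genes, with a median difference of 1.59, while D32 was below C32 for 27, with a median of -0.71. In the D32/C22-high set D22 was below C22 for 29 of 30 genes (median -1.43), and D32 was above C32 for 28 (median 0.80). Both D22 and C32 exceeded both D32 and C22 in mean L for 26 of the D22/C32-high genes, and were both below them for 27 of the D32/C22-high genes. D22 and C32 are the groups in which code and treatment fields differ. The opposite signs required by the rule fix much of this arrangement. By the treatment fields, D22 minus C22 would be warm minus cool in colonized tadpoles and D32 minus C32 the same in depleted tadpoles. Those differences were opposite and both at least 0.7 in size for 6 of the 33 and 15 of the 30 members.

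Averaged over the genes of a set, the level in each tadpole relative to the mean of the 4 groups showed how single animals stood. For the D22/C32-high set it was -0.361 ± 0.933 (SD, n = 5) in D32, 0.780 ± 0.313 in D22, 0.343 ± 0.625 in C32 and -0.762 ± 0.518 in C22. For the D32/C22-high set it was 0.355 ± 0.561, -0.687 ± 0.149, -0.409 ± 0.722 and 0.741 ± 0.399. D22 had the smallest SD in both sets, and the 5 tadpoles of D22 and the 5 of C22 each lay on a single side of the mean. The rule chose the genes by the group means of these same values. The side on which a group lay therefore follows largely from the rule, and nothing is read from it. In D32, D3203 had a level of -1.98 in the D22/C32-high set, where the next lowest tadpole of its group was at -0.249. In C32, C3205 was at -0.584 in the D22/C32-high set and 0.519 in the D32/C22-high set, on the side of C22 in both, while C3207 and C3208 were at 0.855 and 0.933 and at -1.09 and -1.19. The rule asks for opposite signs of C32 minus C22 in the D22/C32-high and the D32/C22-high set. The opposite levels of C3207 and C3208 therefore follow largely from the rule, and nothing is read from them. Those of C3205 run against the side that the rule asks of the C32 mean. Leaving out C3205 removed 0 D22/C32-high genes and 1 D32/C22-high gene. Why C3205 differs was not tested.

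**Figure D4:**
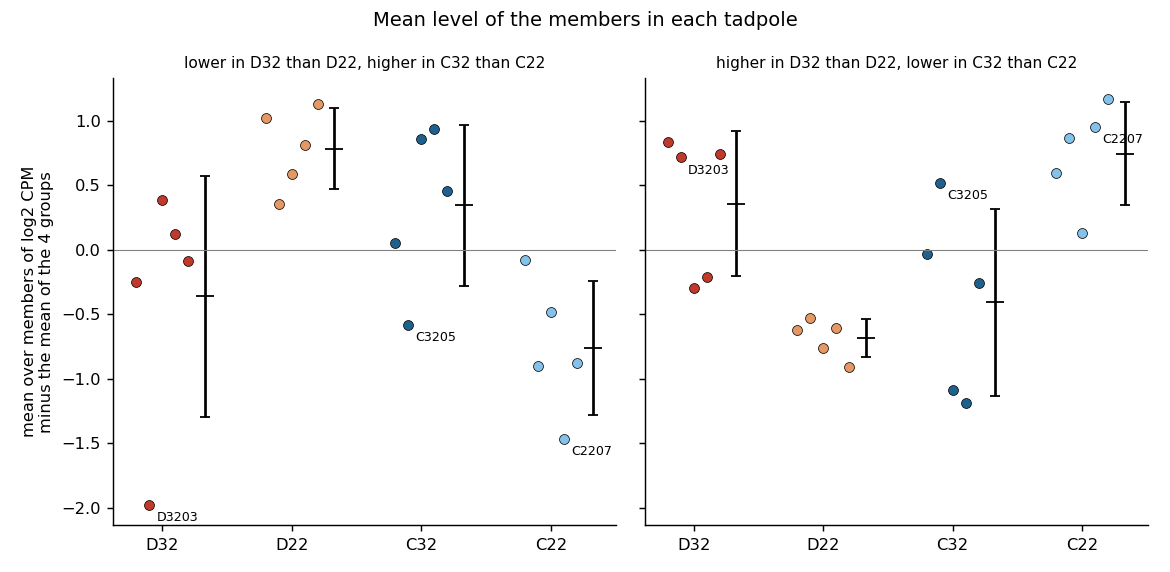
Mean over the genes of a set of log2 CPM minus the mean of the 4 groups (y axis), for each tadpole of D32, D22, C32 and C22, in the D22/C32-high set (left) and the D32/C22-high set (right). Bars are the group mean ± SD of 5 tadpoles. D3203 is at -1.98 on the left, and C3205 lies on the side of C22 in both panels. The genes were chosen by the group means of these same values.

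After the group means were subtracted, members of a set varied together over the 20 tadpoles. The median Pearson correlation of these residuals was 0.275 over the 528 pairs within the D22/C32-high set and 0.238 over the 435 pairs within the D32/C22-high set. It was -0.206 over the 990 pairs with 1 gene of each set and 0.00055 over all pairs of the 6364 genes. The correlation exceeded 0.5 for 28.0% of the first pairs, 15.9% of the second, 2.12% of the third and 6.68% of all pairs. These correlations share libraries and scaling factors and are given as a description. The rule chose the members from values of the same 20 tadpoles. D3203 alone lay farthest from its group mean for 15 of the D22/C32-high genes. Genes chosen through the same tadpole share its residual, so nothing is read from the gap to all pairs. The members of a set are hence not independent observations. In bulk tissue, fewer cells of a type and less RNA per cell cannot be told apart.

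Some members carry consecutive identifiers, which differ by 10. There were 4 such pairs, AB205_0137580 with AB205_0137590 and AB205_0041920 with AB205_0041930 in the D22/C32-high set, and AB205_0062540 with AB205_0062550 and AB205_0006250 with AB205_0006260 in the D32/C22-high set. Within groups, their residuals correlated at 0.997, 0.991, 0.985 and 0.892, in the order named. Over the 2094 pairs of consecutive identifiers among the 6364 genes the median was 0.141, and 23.4% exceeded 0.5. AB205_0137590 averaged 506.1 ± 349.4 normalized CPM (SD, n = 5) in D32, 684.7 ± 145.1 in D22, 272.4 ± 199.1 in C32 and 117.4 ± 58.9 in C22, and AB205_0137580 had 120.2 ± 77.8, 167.8 ± 36.9, 65.7 ± 47.0 and 28.5 ± 14.0 in the same groups. AB205_0062550 averaged 172.7 ± 39.3 in D32, 82.96 ± 33.3 in D22, 111.1 ± 43.9 in C32 and 216.8 ± 122.7 in C22. Whether the genes of a pair share reads or belong to a single transcript was not tested, and counts of such pairs may not be separate.

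Membership was recomputed from the counts with each tadpole left out in turn. Of the 33 D22/C32-high genes, 4 met the rule in all 20 cases, 4 failed without 1 tadpole only, 22 failed in 2 to 5 cases and 3 in 6 or more. Of the 30 D32/C22-high genes, these numbers were 8, 1, 15 and 6. The tadpole whose absence removed most D22/C32-high genes was D3203, with 16 lost, followed by D3202 and C2207 with 10 each. For the D32/C22-high set these were C3208 with 13 and C3207 with 11. D3203 was also the tadpole farthest from its group mean for 15 of the 33 D22/C32-high genes and 3 of the 30 D32/C22-high genes, against 1006 of the 6364 genes (15.8%). The 4 D22/C32-high genes that persisted were AB205_0054730, AB205_0093640, AB205_0208580 and AB205_0126700.

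**Figure D5:**
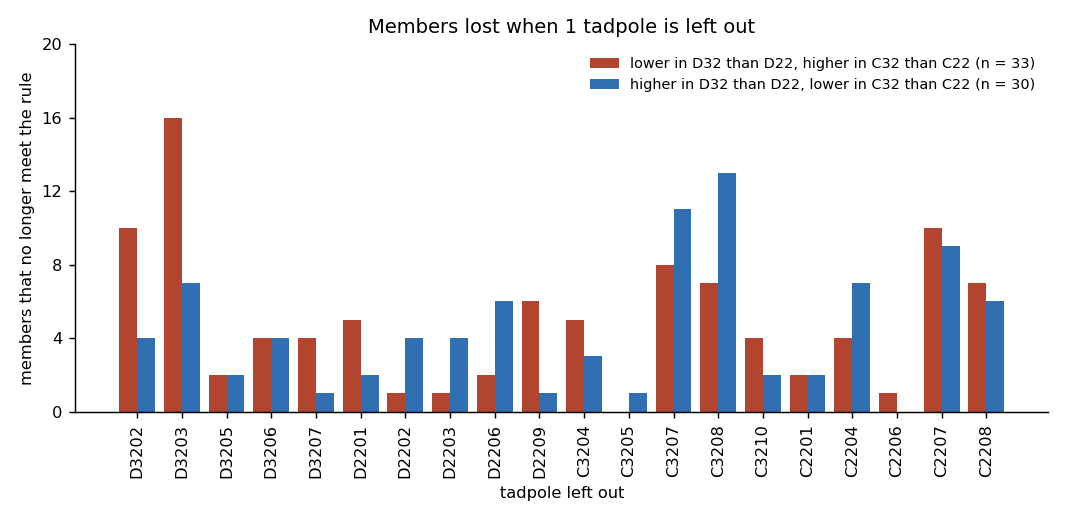
Number of members that no longer met the rule (y axis) when the tadpole on the x axis was left out, for the D22/C32-high set (red, of 33) and the D32/C22-high set (blue, of 30). Leaving out D3203 removed 16 D22/C32-high genes, and leaving out C3208 removed 13 D32/C22-high genes.

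AB205_0208580 and AB205_0126700 show what a persistent member looked like at high and at low abundance. AB205_0208580 had 1283, 98.5, 250.7, 181.2 and 290.1 normalized CPM in D32, against 459.0, 667.7, 490.8, 668.9 and 1434 in D22. In C32 it had 100.04, 156.1, 732.3, 768.7 and 233.8, against 126.2, 92.4, 176.6, 77.7 and 204.9 in C22. D3202 was far above the other D32 tadpoles and overlapped D22, and C3207, C3208 and C3210 lay above all C22 tadpoles. AB205_0126700 had 0.398, 1.13, 0.652, 2.02 and 1.43 in D32, against 4.41, 1.63, 1.96, 2.54 and 3.28 in D22. In C32 it had 1.76, 4.21, 3.35, 2.67 and 3.02, against 1.43, 1.32, 2.26, 0.964 and 2.15 in C22. Both of its contrasts overlapped by few tadpoles, with D3206 alone within the D22 range and C3204 alone within the C22 range.

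A comparison that the rule did not ask for sets the 10 depleted (D32 and D22) against the 10 colonized (C32 and C22) tadpoles by code. By the treatment fields it would be warm against cool. It draws on the same tadpoles and group means as the rule, so a tadpole far from its group moves both. Members also departed most often through D22 or C22. Nothing is therefore read from the member counts or medians. The fit of 10 against 10 held no term for the temperature code. edgeR's quasi-likelihood test called 0 members and 0 of 8477 genes (0%) at an adjusted p under 0.05. Before adjustment, 451 genes (5.32%) had p under 0.05, among them 9 of the 33 D22/C32-high and 4 of the 30 D32/C22-high genes. With all 4 groups in one fit 0 genes were called again (0%), while 720 genes (8.49%), 10 D22/C32-high and 6 D32/C22-high genes among them, passed p under 0.05 before adjustment. DESeq2 called 82 genes (0.977%), including 2 of the D22/C32-high and 0 of the D32/C22-high set. The median log2 fold change, depleted over colonized, was 0.52 in the D22/C32-high set (20 genes above 0 and 13 below), -0.23 in the D32/C22-high set (10 above and 20 below) and 0.010 over all genes. The 2 members called by DESeq2 were the consecutive pair AB205_0137580 and AB205_0137590. Their log2 fold changes in edgeR were 1.61 (standard error 0.47) and 1.61 (standard error 0.48). Each of these standard errors is the fold change divided by the square root of the F statistic of the test. The adjusted p of the 2 genes was 0.427 for each with edgeR's quasi-likelihood test and 0.0412 and 0.0418 with DESeq2.

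For the contrasts that chose the members, calls are given only as counts beside their background. edgeR's quasi-likelihood test of the interaction, the difference between the depleted and the colonized contrast, called 0 of 8477 genes (0%) and 0 members. Its unadjusted p was under 0.05 for 1097 genes (12.9%), with 13 D22/C32-high and 22 D32/C22-high genes among them. DESeq2 called 435 genes (5.18%) with 7 D22/C32-high and 12 D32/C22-high genes among them. The interaction takes D22 and C32 with the same sign, so it is the same contrast by code and by the treatment fields. Between D32 and D22, edgeR's quasi-likelihood test called 1074 genes (12.7%), of which 2 were D22/C32-high (AB205_0207080 and AB205_0210300) and 3 D32/C22-high (AB205_0020540, AB205_0062540 and AB205_0062550). The unadjusted p of that contrast was under 0.05 for 2594 genes (30.6%), with 7 D22/C32-high and 14 D32/C22-high genes among them. Between C32 and C22 the same test called 50 genes (0.59%) and 0 members. Before adjustment, 1768 genes (20.9%) passed p under 0.05, with 13 D22/C32-high and 11 D32/C22-high genes among them.

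Depth differed between the groups. Total counts ran from 17557653 to 22922461 in D32, 17232256 to 22469475 in D22, 20455267 to 22442711 in C32 and 11102195 to 19894322 in C22, and TMM factors from 0.682 to 1.29 over all tadpoles. D22 held factors of 0.682 to 1.03 and D32 of 0.878 to 1.29. The part of depth and scaling in the members was tested only by changing the scaling. Libraries were also scaled by total counts only. The median shift per gene was then 0.53 in D32 minus D22 and 0.06 in C32 minus C22, over all genes. Under that scaling 9 genes, all of them members, met the rule of the D22/C32-high set. The rule of the D32/C22-high set was met by 68 genes, 22 of them members. The lowest count of a member in any library was under 10 for 3 D22/C32-high and 8 D32/C22-high genes, beside 298 of the 6364 genes that could have been members. How much counting error adds to the spread of those members was not tested.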

How the data were processed

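Reads were trimmed (Trim Galore), aligned with BWA to a bullfrog draft genome and summarised with StringTie by the authors. Tool versions were not given in the sources used here. The deposited table holds raw counts of reads for each gene, from which the authors had dropped transcripts of low abundance. All 8477 genes of the table had at least 2 CPM in at least 3 libraries. Mapping to a related species can lower the counts of diverged genes.

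Each tadpole gave 1 library of 11102195 to 22922461 counts, and no column was left out. Grouping followed the animal codes in the sample titles, and the treatment fields were an alternative. L was computed with edgeR 4.0.16 (TMM, prior count of 2) in R 4.3.3. Tests across all genes used edgeR's glmQLFit and glmQLFTest adjusted by Benjamini–Hochberg over all genes, with calls at an adjusted p under 0.05, with DESeq2 1.42.0 as an alternative. D32 against D22 and C32 against C22 were fitted separately, and the interaction in a fit of all 4 groups. p-values measure the spread between tadpoles of a single breeding pair. Scripts were run on simulated data with 200 changed genes, and how many of these were recovered is not given here. The members and all lists were chosen with earlier results of these data known. By rule the text names the 2 genes of each set that rank first by the smaller of their differences, since no table gave gene names, and those next to the threshold. Others were named after their values had been seen, where a count was 5 or fewer or a result rested on them. Lists of marker genes by symbol were not used here for the same reason.

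The alternatives were other scalings (total counts, RLE), prior counts of 0.5 and 5, zero counts allowed, no limit on abundance, minimum differences of 0.5 and 1, group medians, the treatment fields, filterByExpr, the animal number as a block, and each tadpole left out.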

Additional observations from a re-analysis of the deposited data

Results flagged for a closer look

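The values of the 4 leading genes and the mean levels of both sets were screened on the log2 CPM scale (L), within each group of 5 tadpoles, for a tadpole whose gap to the next was more than 0.71 of the group's range (Dixon's test). Chance flags about 1 in 20 groups of unselected values. That rate does not apply to these genes, since the rule chose them by the group means of the same values. AB205_0209510 had 0.112 normalized CPM in D3206 and 0.566 in D2202, under the other tadpoles of D32 and D22, with gaps in L of 0.904 and 0.917 of the range. AB205_0109530 had 0.959 in D3205, under the rest of D32 (0.774 of the range). In the D22/C32-high set the mean level of D3203 was -1.976, apart from the other D32 tadpoles (0.732 of the range). The cause was not tested in any of these cases. Without D3203 the rule gave 22 genes in place of 33 for the D22/C32-high set, 17 of them members.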

How the results depend on the processing

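The D22/C32-high set of 33 genes became 9 genes when scaled by total counts, 197 with zero counts allowed, 85 at a minimum difference of 0.5 and 8 at a minimum of 1. The D32/C22-high set of 30 genes became 68, 182, 90 and 6 under the same settings. With 1 tadpole left out the sets held 22 (without D3203) to 46 genes and 19 (without C3208) to 51 genes (without D3205), and 49 D32/C22-high genes without C3204. RLE factors, prior counts of 0.5 and 5, no limit on abundance, group medians and the treatment fields kept both counts within 1.5 times, but not always the genes: with medians 10 of 28 D22/C32-high and 16 of 40 D32/C22-high genes were members, and by the treatment fields 6 of 46 and 15 of 34 were. For depleted against colonized tadpoles, DESeq2 called 82 genes and 2 members in place of 0, and leaving out tadpoles gave 0 to 1 genes (1 without C2206). For the interaction DESeq2 called 435 genes in place of 0, and leaving out tadpoles gave 0 to 4 genes (4 without D2209, 1 without D3202 or D2206). The causes were not tested.

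Animal numbers recur between groups, but the labels do not say that they pair animals. Residuals of same-numbered tadpoles correlated at a median of -0.035 over 12 pairs (-0.357 to 0.14). Over 138 pairs with different numbers and different groups the median was 0.00842 (-0.417 to 0.461). With the number as a replicate block 0 genes were called in depleted against colonized tadpoles and 0 for the interaction. Both differences of the 4 leading genes kept their sign in the alternatives run, but not their size. D32 minus D22 of AB205_0209510 was -0.11 without D3206 in place of -1.42, its C32 minus C22 was 0.23 with medians in place of 2.34, and D32 minus D22 of AB205_0054730 was -0.85 without D3203 in place of -2.27. The lowest count of a member was 3, and the part of depth in such low counts was not tested.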
